A study of Mus musculus with 12 samples.

Results

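The interferon-inducible GTPases followed here are 9 genes of 24340 in the table: the guanylate-binding proteins Gbp2, Gbp3, Gbp5, Gbp6 and Gbp7, and the immunity-related GTPases Irgm1, Irgm2, Igtp and Iigp1. They are a named set of 9 within these 2 families, chosen with earlier results of these data known, and further genes of the families are given as a list of their own. All 9 were above 0 in all 12 libraries. RNA came from whole retinas of 6 p16-3MR mice aged 12 to 16 weeks. In each mouse 1 eye was brought to an intraocular pressure (IOP) of 85 to 90 mm Hg for 60 min by saline entering the anterior chamber, and the fellow eye was its control. All animals, controls included, carry the 3MR transgene, a luciferase, a red fluorescent protein and a viral thymidine kinase driven by p16Ink4a regulatory sequence, so that only cells in which this sequence is active can turn ganciclovir (GCV) into a toxic product. Mice 1, 2 and 5 received GCV at 25 mg/kg a day and mice 3, 4 and 6 a sham treatment with PBS, which gave 4 groups of 3 retinas on day 3: CTRL and IOP without GCV, and CTRL-GCV and IOP-GCV. The replicate number is the mouse, so each IOP-treated retina has a control retina from the same animal.

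Interferon-inducible GTPases are large enzymes of cell-autonomous immunity. Interferon bound to its receptor activates JAK kinases, and transcription factors that act after them, IRF9 and IRF1 among them, switch on genes through short elements called GAS (interferon-gamma activated site) and ISRE (interferon-stimulated response element). Guanylate-binding proteins assemble on the membranes of vacuoles and microbes, and immunity-related GTPases load onto the same vacuoles. Within the second family, the Irgm proteins (Irgm1, Irgm2 and Igtp, also called Irgm3) sit on the cell's own membranes and hold effectors such as Iigp1 (Irga6) inactive there. In nervous tissue, glia, microglia included, are known to produce them after interferon.

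Gbp5, Gbp7, Gbp3 and Gbp2 lie in this order on the plus strand of 1 cluster on chromosome 3 (GRCm38.p6, chr3:142496934-142638008). Igtp (chr11:58199556-58207592) and Irgm2 (chr11:58214977-58222783) are neighbours on chromosome 11, Irgm1 (chr11:48865245-48871420, minus strand) lies on the same chromosome, and Gbp6 is on chromosome 5 (chr5:105270702-105295871, minus strand). Promoter sequence, 250 bases before to 50 after the annotated start, was read from RefSeq (GRCm38.p6) for 7 members, with 2 starts for Gbp3. The letters TTCNNNGAA (GAS) and GAAANNGAAA (ISRE) were searched on both strands. All 7 members had an ISRE match in a promoter, against 3.44% of 32851 promoters, and 4 of 7 (Gbp5, Gbp7, Igtp and Irgm2) had a GAS match, against 8.3%. The second start of Gbp3 held neither. Letter matches describe the sequence and are not measured binding sites. The 5 promoters below show the arrangements found: an ISRE alone, both elements apart, overlapping ISRE matches, and the similar pair of Igtp and Irgm2. Each runs 5′ to 3′ on the gene's own strand, with GAS and ISRE matches in capitals.
Gbp2 (chr3:142620413-142620712, plus strand): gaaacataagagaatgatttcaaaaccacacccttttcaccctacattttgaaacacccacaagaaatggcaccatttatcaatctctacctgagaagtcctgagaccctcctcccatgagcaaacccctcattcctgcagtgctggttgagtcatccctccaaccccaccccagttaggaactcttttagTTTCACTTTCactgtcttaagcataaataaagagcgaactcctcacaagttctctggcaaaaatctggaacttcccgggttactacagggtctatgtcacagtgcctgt
Gbp5 (chr3:142496684-142496983, plus strand): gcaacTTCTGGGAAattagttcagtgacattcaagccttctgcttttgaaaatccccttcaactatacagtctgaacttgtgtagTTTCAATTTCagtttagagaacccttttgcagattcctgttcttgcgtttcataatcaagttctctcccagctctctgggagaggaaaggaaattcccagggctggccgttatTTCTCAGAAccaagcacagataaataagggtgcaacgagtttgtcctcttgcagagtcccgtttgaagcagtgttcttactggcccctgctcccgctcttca
Irgm1 (chr11:48871371-48871670, minus strand): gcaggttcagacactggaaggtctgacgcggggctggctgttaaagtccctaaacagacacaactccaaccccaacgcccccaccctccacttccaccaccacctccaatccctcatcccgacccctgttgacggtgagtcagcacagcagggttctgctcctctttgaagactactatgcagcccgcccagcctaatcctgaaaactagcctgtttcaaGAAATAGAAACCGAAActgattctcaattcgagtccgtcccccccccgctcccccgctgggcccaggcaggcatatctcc
Igtp (chr11:58199306-58199605, plus strand): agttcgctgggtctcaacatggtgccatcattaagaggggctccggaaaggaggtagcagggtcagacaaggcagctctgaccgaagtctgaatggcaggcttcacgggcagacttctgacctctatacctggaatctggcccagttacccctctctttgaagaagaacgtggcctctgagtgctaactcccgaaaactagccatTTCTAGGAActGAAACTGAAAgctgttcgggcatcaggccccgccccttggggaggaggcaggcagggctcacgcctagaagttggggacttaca
Irgm2 (chr11:58214727-58215026, plus strand): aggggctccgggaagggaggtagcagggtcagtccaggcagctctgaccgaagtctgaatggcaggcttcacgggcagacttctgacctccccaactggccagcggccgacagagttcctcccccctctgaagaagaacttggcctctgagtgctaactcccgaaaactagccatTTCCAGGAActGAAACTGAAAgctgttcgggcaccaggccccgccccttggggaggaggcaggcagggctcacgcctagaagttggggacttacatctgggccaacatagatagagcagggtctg

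In Gbp2 the single ISRE match began 59 bases before the start and read TTTCACTTTC, the reverse strand of the motif. Gbp5 had 1 ISRE match at -165 and GAS matches at -245 and -52, and Gbp7 had GAS matches at -106 and -87 with an ISRE match at -53. Irgm1 and Gbp3 each carried 2 overlapping ISRE matches, at -30 and -24 in Irgm1 and at -45 and -39 in Gbp3. Igtp and Irgm2 carried a GAS match just upstream of an ISRE match. Lined up at this pair, 68.1% of 270 bases were identical between these promoters, with an unbroken identical stretch of 61 bases.

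**Figure D1:**
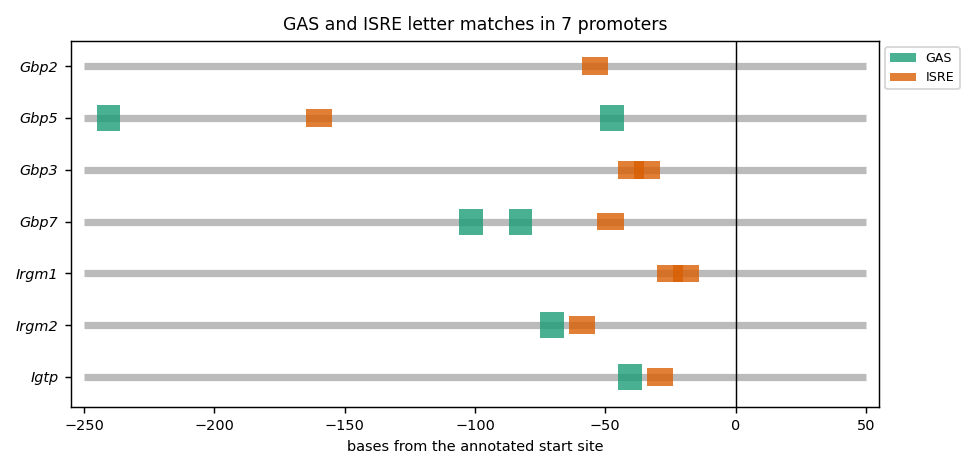
Positions of GAS matches (green) and ISRE matches (orange) in the promoters of 7 members, on an axis of bases from the annotated start site. Apart from the ISRE of Gbp5 at -165, every ISRE match lies within 64 bases of the start, and Gbp3 and Irgm1 show overlapping matches.

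Related genes of this kind share sequence, and reads from such stretches cannot be assigned with certainty. In windows of 50 bases, 90.2% of the annotated Gbp6 transcript also occurred in transcripts of other genes, chiefly Gm43302 and Gbp10, so the Gbp6 values are uncertain. The share was 12.8% for Gbp7, 12.3% for Igtp (with Irgm2), 7.3% for Irgm2, 4.79% for Gbp3, 3.19% for Iigp1, 2.07% for Gbp2, 0.898% for Gbp5 and 0.814% for Irgm1. Depth was estimated from the low values at 3960000 fragments for IOP mouse 6 and 6800000 to 8960000 for the other 11 libraries. Each control value of Gbp5 rested on about 3 to 9 fragments. Levels are given in FPKM, fragments per kilobase of exon scaled to the size of the library, so they may be compared between genes of different length.

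All 9 GTPases were higher in the IOP-treated retina than in the fellow retina in all 6 mice. Over the 6 eye pairs, with the mouse as a block in limma on log2(FPKM + 1), all 9 passed an adjusted p of 0.05 (Benjamini-Hochberg over 18509 genes, 0.00344 to 0.0145), where 6.9% of all genes tested were called higher. The log2 differences ran from 1.23 for Gbp6 to 2.56 for Irgm1, with a median of 2.0, against a median of 0.01 over all genes. The size depends on the pseudocount for low genes: with 0.1 in place of 1 the median was 2.62, Gbp5 moved from 1.36 to 2.62 and Iigp1 from 2.0 to 3.81, above Irgm1 at 3.06. For each of the 9, the lowest IOP-treated retina lay above the highest control retina, which held for 5.47% of genes tested. In bulk retina, more cells that express a gene and more RNA per cell cannot be told apart.

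Gbp2, which carries a lipid anchor and gathers on microbial vacuoles, was the most abundant of the 5 guanylate-binding proteins. Its level was 1.80, 1.34 and 2.55 FPKM in CTRL retinas of mice 3, 4 and 6, and 30.2, 20.3 and 8.60 FPKM in their IOP retinas. In mice 1, 2 and 5 it was 1.85, 1.93 and 3.18 FPKM in CTRL-GCV and 14.0, 11.5 and 18.5 FPKM in IOP-GCV retinas. The lowest IOP-treated retina, that of mouse 6, was still 3.37 times its fellow, and mouse 3 showed the largest ratio, 16.8. The log2 difference over 6 pairs was 2.47 (SE 0.27, limma adjusted p = 0.00344).

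Gbp5, known for promoting inflammasome assembly, was by mean FPKM the least abundant of them in either kind of eye. In IOP mouse 4 it lay above Gbp6, at 5.68 against 4.18 FPKM. Without GCV it was 0.315, 0.269 and 0.361 FPKM in CTRL and 3.31, 5.68 and 1.05 FPKM in IOP retinas (mice 3, 4 and 6). With GCV it was 0.139, 0.364 and 0.255 FPKM in CTRL-GCV and 1.54, 1.68 and 2.15 FPKM in IOP-GCV retinas (mice 1, 2 and 5). IOP-treated and control retinas did not overlap, but the IOP retinas without GCV spread over a wider range than those with it. The log2 difference over 6 pairs was 1.36 (SE 0.22, limma adjusted p = 0.0144), and it missed the threshold without CTRL mouse 3 (adjusted p = 0.0746), IOP mouse 3 (0.064) or CTRL-GCV mouse 5 (0.0564).

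Gbp3, Gbp6 and Gbp7 act beside Gbp2 in the restriction of intracellular parasites and bacteria. Gbp3 measured 1.61, 1.22 and 2.21 FPKM in CTRL and 9.91, 12.1 and 4.74 FPKM in IOP retinas. In CTRL-GCV and IOP-GCV retinas it measured 1.63, 1.81 and 2.51 FPKM and 7.60, 8.07 and 13.0 FPKM. Its IOP means with and without GCV, 9.56 ± 3.00 and 8.92 ± 3.79 FPKM (SD, n = 3 each), differed by less than their spread. Gbp6 measured 1.12, 0.899 and 1.08 FPKM in CTRL and 3.74, 4.18 and 2.29 FPKM in IOP retinas. In CTRL-GCV retinas it was 0.352, 0.969 and 0.912 FPKM, and in IOP-GCV retinas 3.66, 2.63 and 4.17 FPKM. The control retina of mouse 1 was the low one, and this gave mouse 1 the largest Gbp6 ratio, 10.4. Gbp7 measured 0.922, 0.805 and 0.990 FPKM in CTRL and 3.87, 5.94 and 2.90 FPKM in IOP retinas, then 0.903, 1.07 and 1.12 FPKM in CTRL-GCV and 3.40, 3.66 and 11.04 FPKM in IOP-GCV retinas. The IOP-GCV retina of mouse 5 stood well above the other five IOP-treated retinas for this gene. Over 6 pairs the log2 differences were 1.81 (SE 0.21), 1.23 (SE 0.17) and 1.52 (SE 0.22) for Gbp3, Gbp6 and Gbp7, and that of Gbp7 had an adjusted p of 0.0511 in limma without CTRL mouse 3.

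Among the Irgm genes, Irgm1, a regulator of autophagy and mitochondria needed for resistance to mycobacteria, measured 1.75, 1.33 and 2.34 FPKM in CTRL and 20.8, 13.3 and 7.97 FPKM in IOP retinas. In CTRL-GCV retinas it was 1.29, 1.89 and 1.77 FPKM, and in IOP-GCV retinas 12.8, 9.79 and 38.4 FPKM, the last, in mouse 5, being the highest value of any member in any library. Its log2 difference over 6 pairs was 2.56 (SE 0.30, limma adjusted p = 0.00446).

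Irgm2, which restrains non-canonical inflammasome responses, measured 0.768, 0.688 and 0.821 FPKM in CTRL and 10.8, 7.64 and 3.43 FPKM in IOP retinas. CTRL-GCV retinas had 0.792, 1.16 and 1.26 FPKM and IOP-GCV retinas 6.77, 4.38 and 13.2 FPKM. Among IOP-treated retinas mouse 6 was the lowest and mouse 5 the highest. Igtp, needed for resistance to Toxoplasma, measured 2.91, 2.66 and 1.73 FPKM in CTRL and 19.7, 13.0 and 5.49 FPKM in IOP retinas. CTRL-GCV retinas had 2.35, 2.94 and 2.35 FPKM and IOP-GCV retinas 14.7, 10.8 and 28.5 FPKM. Igtp was the most abundant member in control retinas by mean, and mouse 5 again gave its highest value. The log2 differences over 6 pairs were 2.08 (SE 0.24) for Irgm2 and 2.09 (SE 0.24) for Igtp.

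Iigp1, a gene of chromosome 18 and the effector that loads onto parasite vacuoles, was the lowest of the 9 in control retinas by mean FPKM. It measured 0.087, 0.277 and 0.206 FPKM in CTRL and 12.3, 5.11 and 1.17 FPKM in IOP retinas. CTRL-GCV retinas had 0.0956, 0.0936 and 0.210 FPKM and IOP-GCV retinas 3.23, 1.68 and 3.94 FPKM. It went from the lowest control level of the 9 to a mean of 4.57 FPKM, above Gbp5 and Gbp6, in IOP-treated retinas. That mean rests on mouse 3: without it the mean was 3.02 FPKM, below the 3.38 FPKM of Gbp6 in the same 5 retinas, and Iigp1 exceeded Gbp6 in 2 of 6. The log2 difference over 6 pairs was 2.0 (SE 0.33, limma adjusted p = 0.0145), and it missed the threshold without CTRL-GCV mouse 5 (adjusted p = 0.0592) or IOP-GCV mouse 5 (0.0503).

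**Figure D2:**
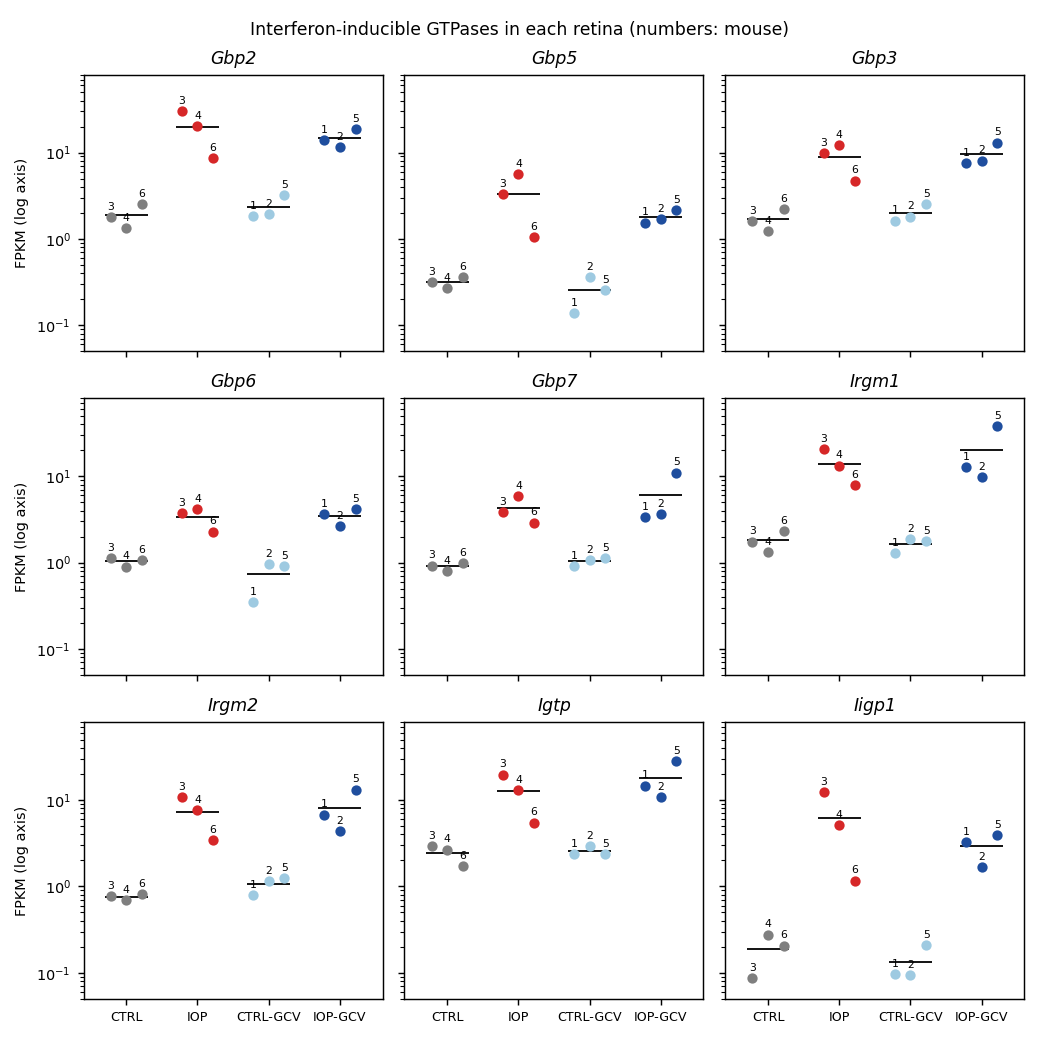
FPKM of the 9 members in each retina on a log axis, 1 panel per gene and 1 column per group. Points are retinas with their mouse number and lines are group means (n = 3). In every panel all IOP-treated retinas lie above all control retinas, IOP mouse 6 is the lowest of the IOP group, and Irgm1 in IOP-GCV mouse 5 reaches 38.4 FPKM.

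The order of levels differed between eyes. In control retinas the means were 2.49 ± 0.453 FPKM for Igtp, 2.11 ± 0.652 for Gbp2, 1.83 ± 0.463 for Gbp3 and 1.73 ± 0.387 for Irgm1 (SD, n = 6). Neighbours in this order differed by less than their SD, although Gbp2 exceeded Gbp3 in 6 of 6 retinas. Gbp7, Irgm2 and Gbp6 followed at 0.970, 0.916 and 0.887 FPKM, within their spread of each other, and Gbp5 and Iigp1 at 0.284 and 0.162 FPKM came last. In IOP-treated retinas Irgm1 (17.2 ± 11.3 FPKM), Gbp2 (17.2 ± 7.69) and Igtp (15.4 ± 7.95) led and could not be separated. Irgm1 exceeded Gbp2 in 1 of 6 IOP-treated retinas, that of mouse 5, so its equal mean rests on that retina. Gbp3 (9.24 ± 3.07 FPKM), Irgm2 (7.70 ± 3.73), Gbp7 (5.14 ± 3.08), Iigp1 (4.57 ± 4.06), Gbp6 (3.44 ± 0.801) and Gbp5 (2.57 ± 1.71) followed.

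The mice differed in the size of the change. The median log2 difference over the 9 members was 2.41 in mouse 3, 2.36 in mouse 4, 2.22 in mouse 5, 1.95 in mouse 1, 1.32 in mouse 2 and 0.97 in mouse 6. Mouse 6 had the smallest change for all 9 members, and its IOP library was the shallowest. The largest change fell in mouse 3 for Gbp2, Irgm2 and Iigp1, in mouse 4 for Gbp3 and Gbp5, in mouse 5 for Gbp7, Igtp and Irgm1, and in mouse 1 for Gbp6. The summed level of the 4 immunity-related GTPases was 0.70 to 1.25 times that of the 5 guanylate-binding proteins in 11 retinas and 1.72 times in IOP-GCV mouse 5. Irgm1 stood at 0.555 to 0.992 times Gbp2 in the same 11 retinas and at 2.08 times in IOP-GCV mouse 5.

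**Figure D3:**
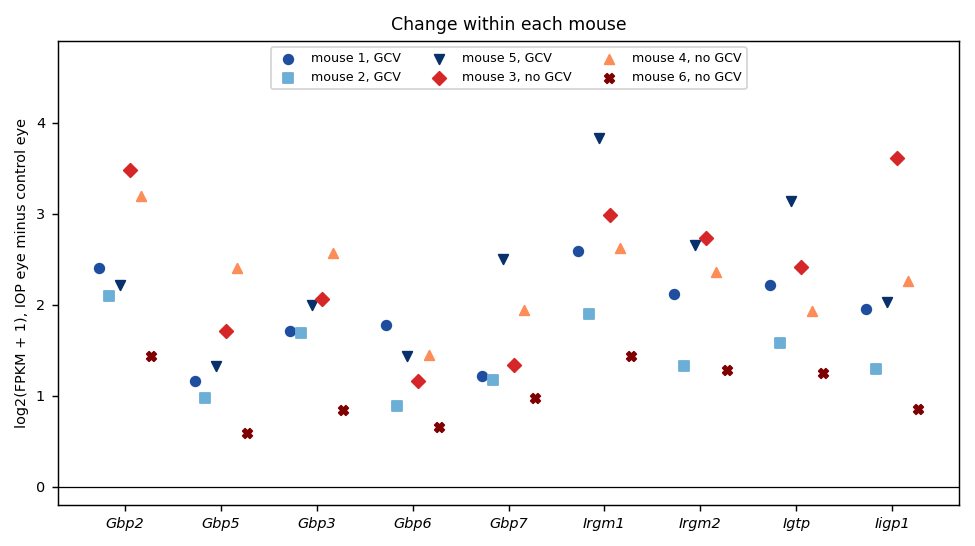
Difference in log2(FPKM + 1) between the IOP-treated and the control eye of each mouse for the 9 members, with blue symbols for the 3 mice given GCV and red or orange ones for the 3 without. Every difference lies above 0, and mouse 6 is the lowest for every gene.

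By treatment, 6 of the 9 were called higher without GCV, where 1.42% of genes were called higher, and 7 of 9 with GCV, where 1.65% were. Without GCV the log2 differences ran from 1.09 (Gbp6) to 2.70 (Gbp2), with a median of 1.86. Igtp (1.86, limma adjusted p = 0.0607), Iigp1 (2.24, 0.0638) and Gbp7 (1.42, 0.0848) did not pass. With GCV they ran from 1.15 (Gbp5) to 2.78 (Irgm1), with a median of 1.80, and Gbp5 (limma adjusted p = 0.113) and Iigp1 (1.76, 0.117) did not pass. In each of these comparisons the 3 IOP-treated retinas lay above the 3 control retinas for 9 of 9 members, as they did for 11.7% and 14.5% of all genes. With the mouse as a block, 0 of the 9 passed without GCV (limma adjusted p 0.0559 for Gbp2 to 0.146 for Gbp7) and 1, Igtp, passed with GCV (0.0499), with the same log2 differences and an unadjusted p under 0.05 for all 9 in both. In those fits 0.389% and 0.751% of all genes were called higher, and 18.8% and 19.1% had an unadjusted p under 0.05. The calls also turned on single libraries. Without GCV, 0 of the 9 passed when CTRL mouse 3 or CTRL mouse 4 was left out, 1 passed when CTRL mouse 6 or IOP mouse 3 was left out, and 2 when any CTRL-GCV retina was. Over all genes the share called higher was 0.125% and 0.141% without CTRL mouse 3 and CTRL mouse 4, 0.558% and 0.582% without CTRL mouse 6 and IOP mouse 3, and 0.661% to 0.791% without a CTRL-GCV retina. With GCV, 0 passed when any 1 CTRL-GCV retina was left out, and 3 passed without IOP-GCV mouse 5, where 0.401% to 0.482% and 1.12% of all genes were called higher. In each of these fits all 9 had an unadjusted p under 0.05, as did 10.8% to 17.5% of all genes.

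No difference with GCV passed the test in any of the 9. For the interaction, the IOP effect with GCV minus that without, none of the 9 was called by limma, as for 0.0% of genes, and the smallest adjusted p of the members was 0.997. No member had an unadjusted p under 0.05 with all 12 libraries, while 358 of 18509 genes did. The estimates lay on both sides of 0, 4 above and 5 below. They ran from -0.48 for Iigp1 (95% interval -2.09 to 1.13) and -0.46 for Gbp2 (-1.66 to 0.73) to 0.43 for Irgm1 (-0.99 to 1.85) and 0.45 for Igtp (-0.87 to 1.77). The narrowest interval, for Gbp6, ran from -0.42 to 0.97 around 0.28. With 3 mice per treatment, the intervals leave room for differences in either direction. Without IOP mouse 6, the median interaction moved from -0.02 to -0.38, and 3 members, Gbp2 (-0.94), Gbp5 (-0.88) and Iigp1 (-1.17), had an unadjusted p under 0.05, as did 2.56% of all genes, with a limma adjusted p of 0.999 for all 9. The median interaction was -0.262 without IOP-GCV mouse 5, and 0.177 and 0.219 without IOP mouse 3 and IOP mouse 4. Leaving out any other library gave no member an unadjusted limma p under 0.05.

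Between IOP-GCV and IOP retinas of different mice, the log2 differences were -0.55 (Iigp1) to 0.51 (Igtp), and between CTRL-GCV and CTRL retinas -0.24 (Gbp6) to 0.23 (Irgm2). Neither comparison gave a limma call among the 9 or among all genes (0.0% in both), and 774 and 295 genes, none of them a member, had an unadjusted p under 0.05. Leaving out IOP mouse 6 turned the members' median between IOP-GCV and IOP retinas from 0.13 to -0.22, and Gbp2 (-0.74), Gbp5 (-0.95) and Iigp1 (-1.24) then had an unadjusted p under 0.05, as did 3.41% of all genes, with limma adjusted p of 0.552 or more. This median was -0.207 without IOP-GCV mouse 5, and 0.247 and 0.219 without IOP mouse 3 and IOP mouse 4. No member had an unadjusted limma p under 0.05 here when any other library was left out. In IOP-treated retinas the estimates for Gbp2, Gbp5 and Iigp1 lay below 0 and those of the other six above it when all libraries were kept. The ranges overlapped for each gene: Irgm1, for example, spanned 9.79 to 38.4 FPKM with GCV and 7.97 to 20.8 FPKM without.

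**Figure D4:**
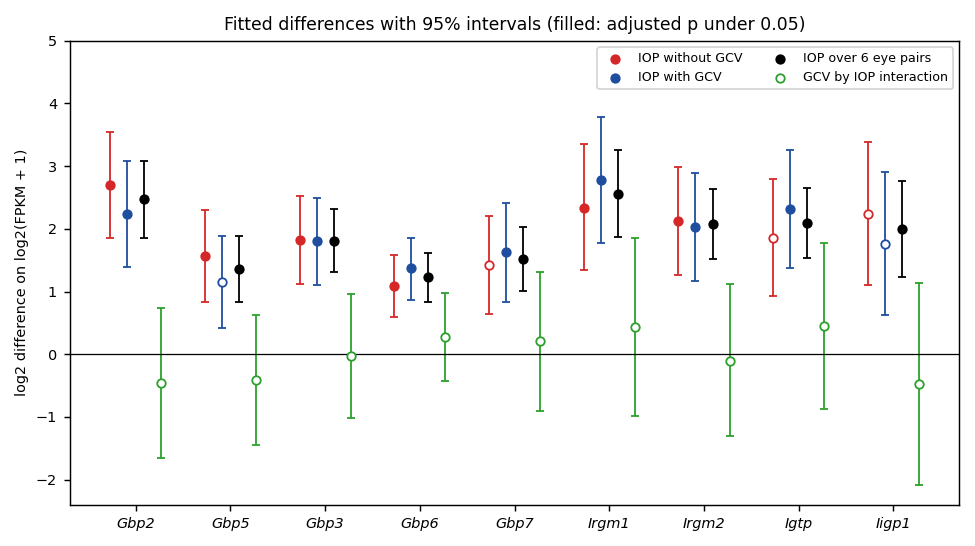
Fitted log2 differences with 95% intervals for the 9 members in the IOP comparisons without GCV (red), with GCV (blue) and over 6 eye pairs (black), and for the GCV by IOP interaction (green). Filled points passed an adjusted p of 0.05. The black points run from 1.23 to 2.56 and are all filled, and every green interval spans 0.

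Of the other members of these GTPase families and the related Mx and very large GTPases, 18 of 22 with a row were above 0 in some library, and 9 of 18 were called higher over the 6 pairs, with a median log2 difference of 0.42 against 0.01 for all genes. Mx1, an antiviral GTPase, had means of 0.0798 and 0.0192 FPKM in CTRL and CTRL-GCV and 1.58 and 1.44 FPKM in IOP and IOP-GCV retinas (limma adjusted p = 0.00555). Gbp9 went from 0.468 and 0.493 FPKM to 2.43 and 1.69 FPKM, and the immunity-related GTPase Gm12250 from 0.0439 and 0.0191 FPKM to 1.40 and 2.02 FPKM. Irgq, the most abundant of the list, had means of 7.85 (CTRL), 8.08 (CTRL-GCV), 6.22 (IOP) and 6.33 FPKM (IOP-GCV) and did not pass (adjusted p = 0.0973).

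Upstream of the GTPases, RNA of the interferons themselves was hardly seen. Of 9 ligand genes, Ifng among them, 8 were listed at 0 in all 12 libraries, and Ifnb1 was above 0 in IOP mouse 4 alone, at 0.378 FPKM. Of 7 receptor and kinase genes, Ifnar2, a chain of the type I interferon receptor, was called higher (means of 5.31 and 6.94 FPKM in CTRL and CTRL-GCV against 16.8 and 19.5 FPKM in IOP and IOP-GCV, log2 difference 1.34, limma adjusted p = 0.0145). Jak1, the most abundant of them, was called lower by 0.24 on the log2 scale (adjusted p = 0.0398). The interferon-gamma receptor gene Ifngr1 gave a log2 difference of 0.15 and was not called (adjusted p = 0.361).

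The transcription factors that bind GAS and ISRE rose with the members, 7 of 8 being called higher over the 6 pairs. Irf9, the DNA-binding subunit of the factor that recognises ISRE, went from means of 5.44 and 5.62 FPKM to 39.4 and 46.0 FPKM, a log2 difference of 2.65 (SE 0.18, limma adjusted p = 0.000866). Irf8, a factor of myeloid cells, went from 0.662 and 0.997 FPKM to 5.29 and 6.63 FPKM. The one not called was Irf2 (log2 difference 0.50, adjusted p = 0.14). Of 5 inhibitors 3 were called higher: Socs3 by 2.79, Usp18 by 2.11 and Ptpn2 by 1.05 on the log2 scale.

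Other targets of the pathway rose as well. Of 12 genes typical of type I interferon, 11 were called higher, with log2 differences of 2.71 for Oasl2, 2.72 for Ifit1 and 3.12 for Rtp4, and the most abundant, Ifit3, went from 8.48 and 7.70 FPKM to 37.1 and 51.5 FPKM. Of 9 interferon-gamma targets above 0, 6 were called higher, with the smallest p for the immunoproteasome subunits Psmb8 (2.39) and Psmb9 (2.07) and the peptide transporter Tap1 (2.47), while Cxcl9, Cxcl11 and Nos2 were not. These lists overlap in what induces them, since many of their genes, the 9 GTPases included, respond to either kind of interferon.

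Among genes whose products work with the GTPases, none of 5 enzymes that attach prenyl lipid anchors, such as those of Gbp2 and Gbp5, or process the anchored end was called by limma over the pairs, and 1 of 5 had an unadjusted p under 0.05, as did 30.7% of all genes. The most abundant was Icmt, a methyltransferase that acts after the lipid is attached, with means of 132 (CTRL), 119 (CTRL-GCV), 122 (IOP) and 146 FPKM (IOP-GCV). Of 10 genes of the autophagy conjugation machinery, which places these GTPases on vacuoles, Atg16l1 was called higher by 0.54 and Gabarapl1 lower by 0.40 on the log2 scale, and 8 were not called. Over all genes tested, 6.9% were called higher and 7.22% lower. Trim21 (1.42) was called among 3 ubiquitin and adaptor genes above 0, and Sqstm1, the most abundant, was not. Of 9 inflammasome genes 6 were called higher, among them Casp1 (1.69), Il1b (2.55) and Pycard (1.18), and Il18, the most abundant, was not (0.45, limma adjusted p = 0.0614).

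Over the 12 libraries, the genes whose pattern was most like the mean of the members included Ifit1, Ifi47, Ifit3, Usp18, Irf1, Jak3, Ccl2, Tap1 and Cebpd, with Pearson correlations of 0.971 to 0.981 among 13615 genes compared. The libraries fall into control and IOP-treated retinas, which sets most of this likeness. Within the 6 IOP-treated retinas the correlations of these genes were 0.73 (Cebpd) to 0.93 (Irf1). Each member's own correlation with the mean of the other eight there was highest for Irgm2 (0.96) and lowest for Gbp5 (0.64) and Gbp7 (0.69).

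Markers of other cells moved with IOP too. Of 8 microglia and macrophage markers 6 were called higher, among them Aif1 and Cd68. P2ry12 (log2 difference 0.28, limma adjusted p = 0.213) and Tmem119 (0.54, 0.115) were not. The summed level of the 8 markers was 13.7 to 22.6 FPKM in CTRL, 87.1 to 343 in IOP, 16.6 to 19.8 in CTRL-GCV and 48.4 to 358 FPKM in IOP-GCV retinas, and each of the 8 was above 0 in every group's mean. Most of it was Cd68 in several retinas, 43.6 to 293 FPKM in IOP and 20.1 to 225 FPKM in IOP-GCV. In 5 IOP-treated retinas the marker sums were 48.4 (mouse 2), 87.1 (mouse 4), 119 (mouse 1), 167 (mouse 3) and 358 FPKM (mouse 5), beside GTPase sums of 54.2, 87.3, 67.7, 115 and 133 FPKM. The sixth, IOP mouse 6, the shallowest library, had 343 FPKM of the markers, 293 of it Cd68, and the lowest GTPase sum, 37.6 FPKM. The other 7 markers summed to 50.1 FPKM there, to 28.4 to 50.9 FPKM in mice 1 to 4 and to 133 FPKM in mouse 5. Of 6 monocyte and neutrophil markers 5 were called higher, with sums of 3.03 to 18.7 FPKM over the control eyes and 46.3 to 473 FPKM over the IOP-treated eyes, mouse 5 the highest. Markers of T and NK cells, which are known sources of interferon-gamma, summed to 0.0375 to 0.584 FPKM over the control eyes and 0.8 to 1.7 FPKM over the IOP-treated eyes. Of these, 2 of 10 (Nkg7 and Cd4) were called higher, as were 6.9% of all genes. None of 6 endothelial markers was called by limma over the 6 pairs or had an unadjusted p under 0.05 there. The part of these cells in the GTPase levels was not tested.

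**Figure D5:**
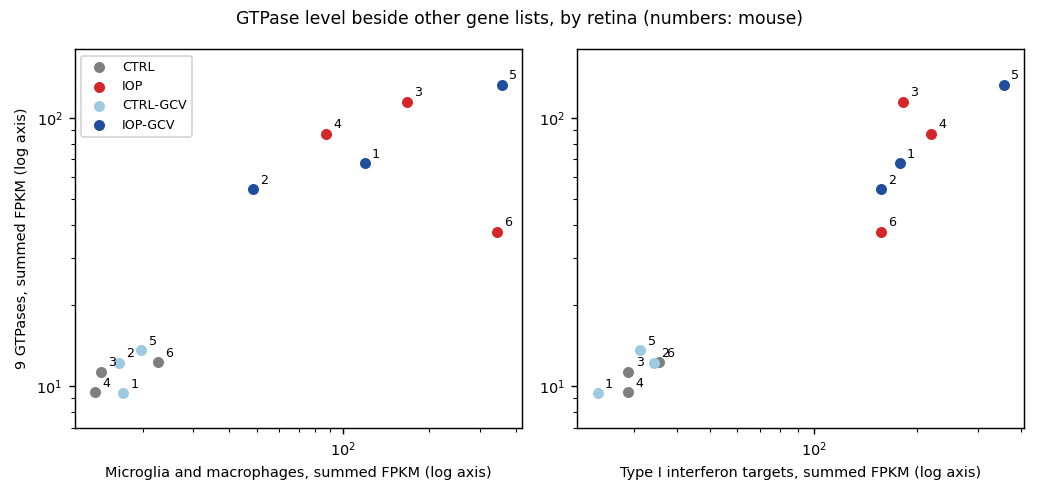
Summed FPKM of the 9 GTPases in each retina (vertical, log axis) against the summed FPKM of 8 microglia and macrophage markers (left) and of 12 type I interferon targets (right), both on log axes. Numbers are mice and colors are groups. IOP mouse 6 lies to the right on the left panel (343 FPKM) and low (37.6 FPKM), and IOP-GCV mouse 5 is at the top of both panels (133 FPKM).

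The retinal identity of the samples and other tissue in them bear on all these values. Rod markers were the highest of all lists, at 28600 to 53200 FPKM in sum, and none of the 5 was called by limma, with 1 at an unadjusted p under 0.05. All 6 ganglion cell markers and 3 of 6 bipolar and amacrine markers were called lower with IOP over the 6 pairs, as were 7.22% of all genes, and of 6 Mueller glia markers Vim was called higher and Glul and Rlbp1 lower. Lens genes, 4 of 5 called higher with IOP, summed to 39.3 to 2770 FPKM in IOP-treated retinas. Control retinas had 3.28 to 57.7 FPKM apart from CTRL-GCV mouse 1, at 3930 FPKM. The GTPase sum of that retina was 9.40 FPKM, beside 9.49 to 13.6 FPKM in the other control retinas. No pigment epithelium or blood marker was called by limma over the 6 pairs or had an unadjusted p under 0.05 there. All 9 GTPases remained called over the pairs when CTRL-GCV mouse 1 or IOP mouse 6 was left out, where 4.75% and 5.04% of all genes were called higher. These fits cannot test the part of lens tissue, since the control retinas left had lens sums of only 3.28 to 57.7 FPKM. The role of other tissue in the GTPase values was not tested.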

How the data were processed

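RNA-seq libraries (TruSeq stranded mRNA, paired-end) were made from 12 retinas. The authors' notes name TopHat2, Bowtie2, Cufflinks, Cuffdiff and mm10, and the study's methods name HOMER counting over exons of RefSeq genes. The deposited values are taken as FPKM, which is not stated and was inferred: low values were near whole fragments in 80.7 to 87.0% of cases (tolerance 0.15, 4263 genes with 1 transcript of at least 1500 bases, 160 bases subtracted from the length). Depth therefore is an estimate, and intervals on single values were not computed.

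Tests were run in limma 3.58.1 (R 4.3.3) on log2(FPKM + 1) (variance trend, Benjamini-Hochberg over 18509 genes above 0, called at 0.05), so fold changes of low genes are understated. The comparison over 6 eye pairs had the mouse as a block, since both eyes come from 1 animal, and the others had 4 group means and no block. Deviations of fellow eyes from their group means correlated between -0.12 (mouse 1) and 0.38 (mouse 4) over 13624 genes. Members and lists were chosen with earlier results of these data known. All members are named, and of each pathway list the 3 called genes with the smallest p and the most abundant gene. Other genes named without being called were chosen after their values were seen. Results for some genes that these rules name are not reported here. Shared windows came from GENCODE transcripts. Other settings tried were 0.1 as the pseudocount, genes of at least 1 FPKM in 3 libraries only, median-ratio scaling (factors -0.00192 to 0.0197 on the log2 scale), no variance trend, the block, only the groups compared, and each library left out.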

Additional observations from a re-analysis of the deposited data

How the results depend on the processing

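All 9 members kept their direction under every alternative in the 3 IOP comparisons. Counts of members called moved most without GCV and with GCV: with the mouse as a replicate block they were 0 and 1 (6 and 7 without it), and with only the 2 groups compared they were 2 and 4. The share of all genes called higher in these fits was 0.389% and 0.751% with the block, and 1.67% and 0.479% with only the 2 groups. With each library left out in turn the counts of members ranged from 0 to 9 in both. Over the 6 eye pairs, where the mouse is the block, the count was 9 without the block and under the other settings (6.76% to 10.1% of all genes called higher), and 7 to 9 with a library left out (1.75% to 5.41%). It was 7 without CTRL mouse 3 (1.75%) or CTRL-GCV mouse 5 (3.4%). For the interaction and both GCV comparisons it was 0 throughout, and the estimates changed sign in some fits (the sign held in 141 of 153 for the interaction). Counts also rose in some fits. In the comparison without GCV, leaving out IOP mouse 4 gave 8 members called and leaving out IOP-GCV mouse 5 gave 9. There 5.25% and 3.48% of all genes were called higher. The causes of these shifts were not tested, and fits without a library or group hold fewer samples. The pairing changed no other call of a member. The calls of other genes were not compared one by one. Depth limits the control values of Gbp5, at 3 to 9 estimated fragments, and fragments were not estimated for Iigp1, which is lower in FPKM on average.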
